A study of Rattus norvegicus with 4 samples.

Results

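Nuclear RNA-binding and splicing proteins were followed through the serum response of Rat1 fibroblasts by the genes Hnrnpa1, Hnrnpc, Hnrnpk, Ddx39b and Pabpc1. Their members are all probe sets of an Affymetrix rat genome array whose only gene symbol in the platform annotation is one of these 5 names, which gave 10 of 8740 probe sets, leaving out those the manufacturer added as controls. Of the 10, 4 measure Hnrnpa1, 2 measure Hnrnpc and 4 measure Ddx39b. Hnrnpk occurs in the annotation of 2 probe sets, both of which also carry the symbol of a pseudogene or of a second locus, so that neither entered, and Pabpc1 was not analysed here because the annotation used pairs no probe set with it. Rat1 is an immortalized line of rat fibroblasts, and its cells had been infected with 1 of 2 retroviruses. Rat1-Omomer cells carry a fusion of Omomyc, a Myc-derived miniprotein that competes for Myc dimerization, with a tamoxifen-responsive estrogen receptor domain, while Rat1-control cells carry the control virus. Cells of both lines were kept for 48 h in 0.1% serum, were given 4-hydroxytamoxifen (4-OHT), and were harvested either at once (0 min) or after 90 min in 10% serum. The arrays are 1 each for Rat1-Omomer cells at 90 min, Rat1-control cells at 90 min, Rat1-Omomer cells at 0 min and Rat1-control cells at 0 min. All 4 received 4-OHT, so that Rat1-control cells control for the drug, and each infected line was measured as 1 stably infected population. The labels put 4-OHT in the starvation medium, whereas the methods add it 4 h ahead of serum, so that its duration is not settled. With 1 array per condition, the spread between cultures is unknown and no p is given, and in bulk RNA fewer cells with a transcript and less of it per cell cannot be told apart.

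Heterogeneous nuclear ribonucleoproteins (hnRNPs) bind nascent transcripts and take part in their splicing, export and stability. Hnrnpa1 encodes hnRNP A1, which shuttles between nucleus and cytoplasm and favours exon skipping, Hnrnpc encodes hnRNP C, which stays in the nucleus and binds uridine tracts in introns, and Hnrnpk encodes hnRNP K, a poly(C)-binding protein. Ddx39b, also known as UAP56, is a DEAD-box RNA helicase that acts in spliceosome assembly and in export of mRNA by the TREX complex. Pabpc1 encodes the cytoplasmic protein that covers poly(A) tails. In dividing cells Myc is known to raise transcription of several hnRNP genes, hnRNP A1 among them.

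Since the study concerns the access of Myc to E-boxes, the promoter windows of the 3 genes with measured probe sets are shown first, from 250 bases before to 50 bases after the annotated start in RefSeq (build GRCr8). Capitals mark the letters CCAAT or, for the other strand, ATTGG, and GGGCGG or, for the other strand, CCGCCC. The palindrome CACGTG, the canonical E-box, was searched as well. The windows lie at chr7:136253868-136254167 (plus strand) for Hnrnpa1, chr15:27282666-27282965 (minus strand) for Hnrnpc and chr20:3589602-3589901 (minus strand) for Ddx39b.
Hnrnpa1: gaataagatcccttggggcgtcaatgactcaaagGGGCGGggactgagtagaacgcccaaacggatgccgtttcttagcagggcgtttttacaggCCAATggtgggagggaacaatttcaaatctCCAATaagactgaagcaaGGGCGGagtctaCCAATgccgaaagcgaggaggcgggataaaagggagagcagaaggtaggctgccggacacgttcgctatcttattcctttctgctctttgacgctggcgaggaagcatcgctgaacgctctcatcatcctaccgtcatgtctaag
Hnrnpc: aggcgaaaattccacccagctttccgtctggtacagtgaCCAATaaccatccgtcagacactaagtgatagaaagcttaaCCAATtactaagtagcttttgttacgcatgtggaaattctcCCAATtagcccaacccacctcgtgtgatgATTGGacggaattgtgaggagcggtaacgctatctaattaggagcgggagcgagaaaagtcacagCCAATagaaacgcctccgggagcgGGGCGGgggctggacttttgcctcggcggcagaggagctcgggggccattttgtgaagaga
Ddx39b: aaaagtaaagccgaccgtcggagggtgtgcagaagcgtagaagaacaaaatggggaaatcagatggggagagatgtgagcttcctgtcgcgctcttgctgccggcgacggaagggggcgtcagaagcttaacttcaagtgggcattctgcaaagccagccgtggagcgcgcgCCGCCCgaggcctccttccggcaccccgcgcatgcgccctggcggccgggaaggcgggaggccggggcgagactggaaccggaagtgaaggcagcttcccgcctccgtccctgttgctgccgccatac
None of the 3 windows holds CACGTG, which is found in 6.42% of the 33469 promoter windows of the same 300 bases. E-box forms other than CACGTG were not searched, nor was sequence outside the windows, such as introns. CCAAT, searched on both strands, occurs 3 times for Hnrnpa1, 5 times for Hnrnpc and 0 times for Ddx39b, whereas 37.5% of all windows hold at least 1 and 3.02% hold at least 3. GGGCGG, also on both strands, occurs 2 times for Hnrnpa1, 1 time for Hnrnpc and 1 time for Ddx39b, and at least 1 time in 33.1% of all windows. CCAAT and GGGCGG were chosen after the windows had been read, and a match is a description of letters, not a binding site.

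Every value below is an average difference, that is, the brightness of the perfect match probes less that of their mismatch probes averaged over a probe set, on the linear scale of the deposited table. The robust SD of the noise, from the values below 0 of all 4 arrays, was 524. Values under a floor of 1048, which is 2 such SDs, were set to the floor before folds were taken, so that folds with 1 floored value are bounds. A probe set under the floor on both arrays has no fold. Steps of under 1482, 2 SDs of the noise of a difference, are called close below; this noise is that of the array, not of cultures. The robust noise SD of single arrays was 614 for Rat1-Omomer and 545 for Rat1-control at 90 min, against 512 for Rat1-Omomer and 448 for Rat1-control at 0 min. Of the 10 probe sets, 8 lay above the floor on at least 1 array and 5 on all 4. Of 14 fibroblast marker genes, 13 lay above the floor on all arrays by at least 1 probe set and Pdgfrb on none. Of 15 marker genes of other cell types 1, the neural Snap25, lay above the floor on all arrays by its brightest probe set and 10 on none. For Snap25 this was AB003991_at, while AB003991_g_at, AB003992_s_at and U56261_s_at were under the floor on every array. The sum of the fibroblast markers was 728098 in Rat1-Omomer and 627402 in Rat1-control cells at 90 min, against 523357 in Rat1-Omomer and 540313 in Rat1-control cells at 0 min. The brighter Myc probe set, Y00396mRNA_g_at, had 7233 in Rat1-Omomer and 4980 in Rat1-control cells at 90 min, with 2307 in Rat1-Omomer and 1172 in Rat1-control cells at 0 min. The weaker one, Y00396mRNA_at, had 159 in Rat1-Omomer and 1171 in Rat1-control cells at 90 min. At 0 min it had 534 in Rat1-Omomer and 222 in Rat1-control cells, so that it passed the floor in Rat1-control cells at 90 min only. The part of array noise and of the marker sums in the results was not tested.

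The probe sets of Hnrnpa1 disagreed in direction. Its brightest, M12156_at, whose ID does not mark an expressed sequence tag (EST), had 3845 in Rat1-Omomer and 13738 in Rat1-control cells at 90 min, with 11550 in Rat1-Omomer and 9962 in Rat1-control cells at 0 min. The Rat1-Omomer 90 min array was thus the lowest by a wide step, and the steps between the 3 others were above 1482. At 90 min Hnrnpa1 was 3.57-fold lower in Rat1-Omomer than in Rat1-control cells by this probe set, and between 3.02-fold and 4.29-fold lower if each value is moved by 1 noise SD. In the Rat1-control line it was 1.38-fold higher at 90 min than at 0 min, and in the Rat1-Omomer line 3.0-fold lower, at the 3-fold threshold of the study. That call ended with median scaling (2.58-fold) and with quantile normalization (2.87-fold), and moving each value by 1 noise SD gave 2.52-fold to 3.64-fold.

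The probe set rc_AA799893_g_at of Hnrnpa1, from an EST, was likewise lowest in Rat1-Omomer cells at 90 min, with Rat1-Omomer cells at 0 min the highest. It had 1056 in Rat1-Omomer and 6814 in Rat1-control cells at 90 min, with 8577 in Rat1-Omomer and 6146 in Rat1-control cells at 0 min. Hnrnpa1 was 6.45-fold lower in Rat1-Omomer than in Rat1-control cells at 90 min by this probe set. The value of 1056 stands just above the common floor and under 1228, the floor that this array's own noise gives, with which the fold is at least 5.55-fold lower. Both Rat1-control values were close. The weaker probe set of the same EST, rc_AA799893_at, had 211 in Rat1-Omomer and 2303 in Rat1-control cells at 90 min, with 1153 in Rat1-Omomer and 1081 in Rat1-control cells at 0 min. Between the lines at 90 min it was lower in Rat1-Omomer cells by at least 2.20-fold, and all steps between neighbouring arrays were close.

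The fourth probe set of Hnrnpa1, rc_AA965147_at, went the other way. It had 9325 in Rat1-Omomer and 4646 in Rat1-control cells at 90 min, with 3436 in Rat1-Omomer and 3810 in Rat1-control cells at 0 min. The Rat1-Omomer 90 min array was here the highest, 2.01-fold above Rat1-control cells at 90 min, and the 3 others were close. Of the 3 probe sets of Hnrnpa1 above the floor on all 4 arrays, 2 were therefore lower and 1 was higher in Rat1-Omomer than in Rat1-control cells at 90 min, over a range of 3.70 in log2 fold. Of the 389 genes with at least 2 such probe sets, 5 genes (1.29%), Hnrnpa1 included, had a range as wide in this comparison. The 389 genes hold 890 such probe sets, and a range can widen with their number. Genes were not matched to the 3 probe sets of Hnrnpa1. In Rat1-control cells at 90 min over 0 min the same 3 probe sets of Hnrnpa1 spanned 0.31, a range reached by 40.4% of the genes. The SD of log2 folds within a gene over these 389 genes was 0.73 for Rat1-Omomer over Rat1-control cells at 90 min, against 0.31 for Rat1-control cells at 90 min over 0 min and 0.29 for Rat1-Omomer over Rat1-control cells at 0 min. Which transcripts of Hnrnpa1 or of its processed copies each probe set takes up was not tested.

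Hnrnpc was lowest in Rat1-Omomer cells at 90 min. Its probe set rc_AA799995_g_at had 1140 in Rat1-Omomer and 13253 in Rat1-control cells at 90 min, with 9494 in Rat1-Omomer and 8447 in Rat1-control cells at 0 min. Rat1-control cells at 90 min were the highest, both 0 min arrays were close, and Rat1-Omomer cells at 90 min were the lowest. Hnrnpc was 11.6-fold lower in Rat1-Omomer than in Rat1-control cells at 90 min, still 7.65-fold lower with each value moved toward the other by 1 noise SD, and at least 10.8-fold lower with the array's own floor of 1228. In Rat1-control cells it was 1.57-fold higher at 90 min than at 0 min, whereas in Rat1-Omomer cells it was 8.33-fold lower at 90 min than at 0 min. The second probe set of Hnrnpc, rc_AA799995_at, was under the floor everywhere, between 38 and 183, and has no fold, so that the result for this gene rests on 1 probe set.

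Ddx39b was at its lowest in Rat1-Omomer cells at 90 min by the probe sets of 1 EST, but not by the one from another sequence. The probe set rc_AA892014_s_at had 652 in Rat1-Omomer and 7733 in Rat1-control cells at 90 min, with 6717 in Rat1-Omomer and 9183 in Rat1-control cells at 0 min. It was under the floor on the Rat1-Omomer 90 min array alone and was at least 7.38-fold lower there than in Rat1-control cells at 90 min, or at least 6.30-fold lower with the array's own floor. From the same EST, rc_AA892014_r_at had 332 in Rat1-Omomer and 2098 in Rat1-control cells at 90 min, with 2288 on each of the 0 min arrays, and was lower in Rat1-Omomer cells at 90 min by at least 2.0-fold. The remaining probe set of this EST, rc_AA892014_i_at, stayed between 115 and 422 and has no fold. M75168_at, in contrast, had 4007 in Rat1-Omomer and 3670 in Rat1-control cells at 90 min, with 3711 in Rat1-Omomer and 4490 in Rat1-control cells at 0 min. All its neighbouring steps were close, and Ddx39b was 1.09-fold higher in Rat1-Omomer than in Rat1-control cells at 90 min by this probe set, with 1.20-fold lower to 1.44-fold higher when each value is moved by 1 noise SD.

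**Figure D1:**
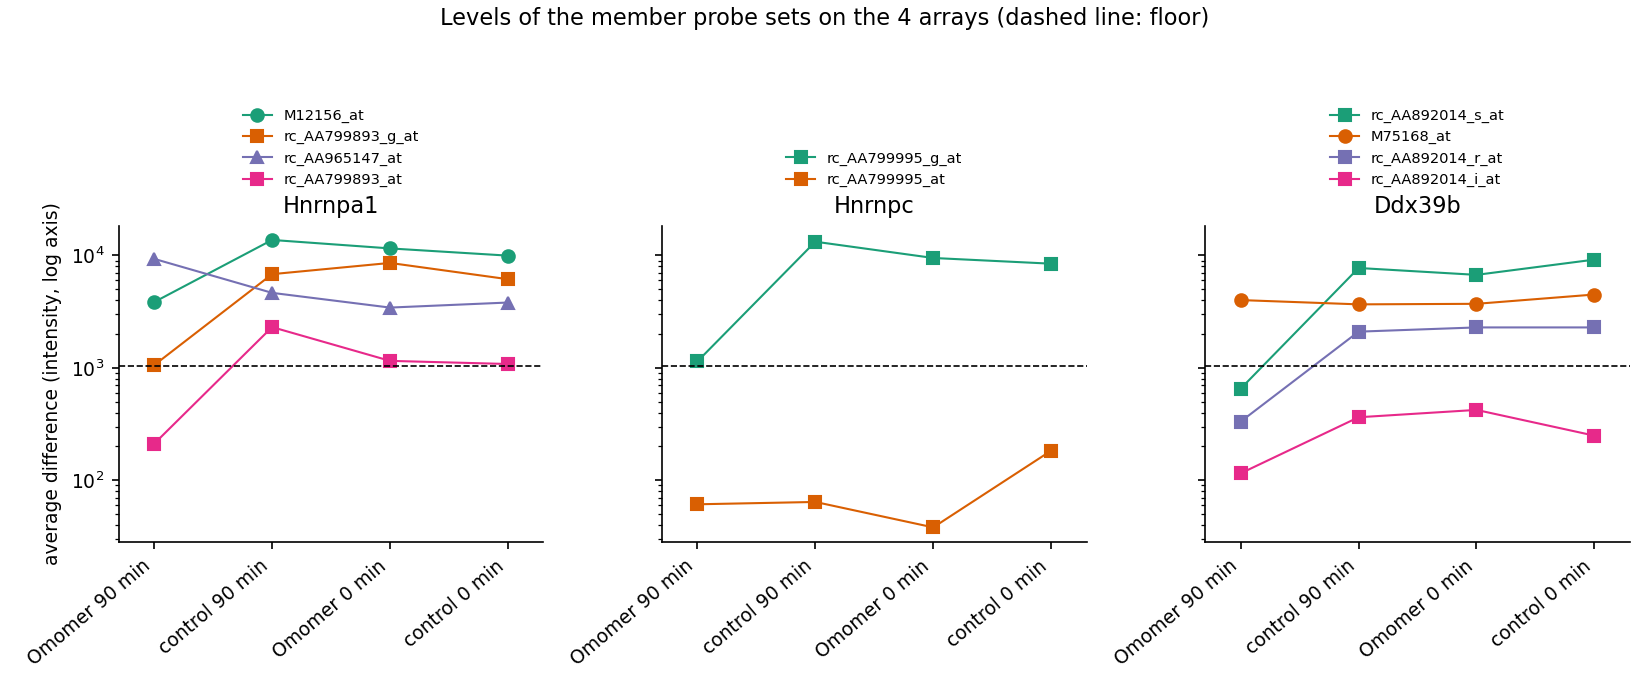
Average difference (intensity, log axis) of each probe set of Hnrnpa1, Hnrnpc and Ddx39b on the 4 arrays, 1 array per condition, with the floor of 1048 as a dashed line. Squares are probe sets of 5 EST series described in the text, triangles other ESTs and circles probe sets not from an EST. The Rat1-Omomer 90 min array is lowest for M12156_at (3845), rc_AA799995_g_at (1140) and rc_AA892014_s_at (652), highest for rc_AA965147_at (9325) and close to the others for M75168_at (4007).

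Counted over all members, 4 of the 8 probe sets with a fold were lower by 3-fold or more in Rat1-Omomer than in Rat1-control cells at 90 min, where 8.57% of all probe sets with a fold were. None of the 8 was higher by as much, which 2.22% of all probe sets were. The 4 are M12156_at and rc_AA799893_g_at of Hnrnpa1, rc_AA799995_g_at of Hnrnpc and rc_AA892014_s_at of Ddx39b. With a floor of 4 noise SDs these calls held, with M12156_at at the same fold and bounds of 3.25-fold for rc_AA799893_g_at, 6.32-fold for rc_AA799995_g_at and 3.69-fold for rc_AA892014_s_at. With a floor of 1 noise SD, rc_AA799893_at of Hnrnpa1 (at least 4.39-fold) and rc_AA892014_r_at of Ddx39b (at least 4.0-fold) were called as well, and the 11.9-fold of rc_AA892014_s_at stood beside the 11.6-fold of Hnrnpc. The median log2 fold of the 8 was -1.49, against 0.18 over all 4048 probe sets, with bounds counted at their bound. The Rat1-control 90 min array is named so by its title, source and description, but its transfection label reads Omomyc, and that of the Rat1-Omomer 0 min array reads control vector. The 8 come from 3 genes and some share an EST, so that they are not independent.

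The origin of the probe sets moved with this result. Of the 10 members, 7 belong to the 1744 probe sets with an ID beginning rc_AA89, rc_AA87, rc_AA85, rc_AA80 or rc_AA79, here called the 5 EST series, a grouping known from earlier results of these data. Within these series 27.2% of the probe sets with a fold were lower by 3-fold or more in Rat1-Omomer than in Rat1-control cells at 90 min, against 3.3% outside them. Of the 5 members with a fold inside the series, 3 were at least 3-fold lower, and of the 3 outside, 1 was. A probe set can only be called lower if it is bright on the other array. Among those with at least 3 times the floor in Rat1-control cells at 90 min, 57.3% inside the series were called, as were all 3 members (of Hnrnpa1, Hnrnpc and Ddx39b), and 7.36% outside, as was 1 of 3 members (M12156_at of Hnrnpa1). The median log2 fold was -0.69 inside the series over all probe sets and -2.69 for the 5 members there, and 0.32 over all probe sets outside them against 0.13 for the 3 members. The part of the probe set origin in the low values of Hnrnpa1, Hnrnpc and Ddx39b was not tested.

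**Figure D2:**
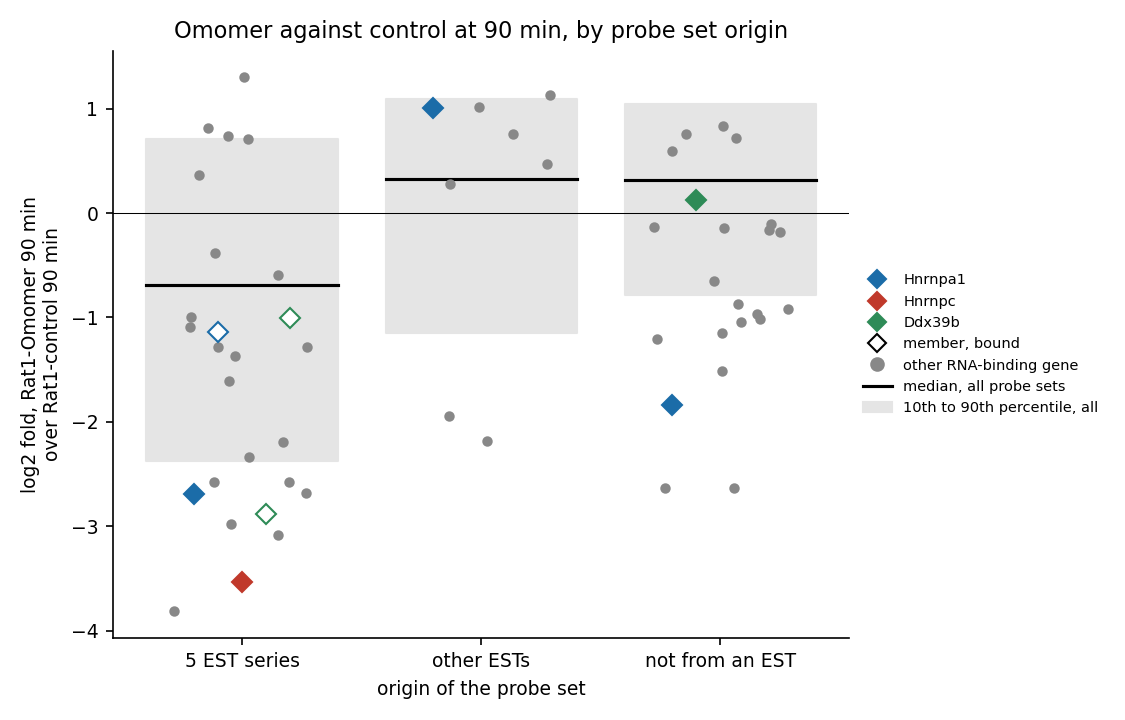
Log2 fold of Rat1-Omomer over Rat1-control cells at 90 min by the origin of the probe set: diamonds are the members (open where 1 value is at the floor), grey points other RNA-binding and splicing genes, black lines the medians and grey boxes the 10th to 90th percentiles of all probe sets with a fold. The median of all probe sets is -0.69 in the 5 EST series and 0.33 and 0.32 in the other classes, and M12156_at of Hnrnpa1 (-1.84) lies low among the probe sets not from an EST.

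Against Rat1-control cells at 0 min, the array that the study took as its common reference, 3 of 8 member probe sets were lower by 3-fold or more in Rat1-Omomer cells at 90 min, against 9.95% of all probe sets, and none at least 3-fold higher, against 2.8%. Hnrnpc was 7.41-fold lower by rc_AA799995_g_at, Ddx39b at least 8.76-fold lower by rc_AA892014_s_at and Hnrnpa1 5.82-fold lower by rc_AA799893_g_at. With a floor of 4 noise SDs the fold of this Hnrnpa1 probe set was at least 2.93-fold and its call ended, which left 2 of 8. By M12156_at Hnrnpa1 was 2.59-fold lower and by rc_AA965147_at 2.45-fold higher. M75168_at of Ddx39b was 1.12-fold lower, a direction that turned with median scaling. These 3 calls all come from the 5 EST series, where 28.9% of all probe sets were called, against 4.36% outside.

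The response of Rat1-control cells to serum was small for all members. None of 8 probe sets reached 3-fold at 90 min over 0 min, whereas 1.81% of all probe sets were lower and 1.93% higher by as much. All 4 probe sets of Hnrnpa1 were higher, between 1.11-fold and 2.13-fold, as was Hnrnpc at 1.57-fold. The 3 measured probe sets of Ddx39b were lower, by 1.09-fold to 1.22-fold, and for rc_AA892014_r_at this direction turned with median scaling and with quantile normalization. The median log2 fold of the 8 was 0.22, against -0.07 over all probe sets.

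In Rat1-Omomer cells at 90 min over their own 0 min array, which shares no array with the comparison in Rat1-control cells, 4 of 8 were at least 3-fold lower, with 9.65% of all probe sets lower (29.6% in the 5 EST series and 3.7% outside them) and 2.9% higher by this measure. They were rc_AA799893_g_at (8.12-fold) and M12156_at (3.0-fold) of Hnrnpa1, rc_AA799995_g_at of Hnrnpc (8.33-fold) and rc_AA892014_s_at of Ddx39b (at least 6.41-fold). M12156_at, the 1 of them outside the 5 EST series, was under 3-fold with median scaling and with quantile normalization, which left 3 of 8. The Hnrnpa1 probe set rc_AA965147_at was 2.71-fold higher. Of the 8 probe sets, 4 were higher with serum in Rat1-control cells and lower in Rat1-Omomer cells. They were rc_AA799893_at, M12156_at and rc_AA799893_g_at of Hnrnpa1 and rc_AA799995_g_at of Hnrnpc, all but M12156_at in the 5 EST series. Of all 3766 probe sets with both folds, 16.0% showed this pair of directions, 25.5% in the 5 EST series and 12.9% outside them. The rise of rc_AA799893_g_at in Rat1-control cells was 1.11-fold, between values that were close. For rc_AA799893_at the Rat1-Omomer fold lies against a value at the floor, and its direction turned with each array's own floor.

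In starved cells no member probe set reached 3-fold in Rat1-Omomer over Rat1-control cells at 0 min, against 0.503% of all probe sets lower and 0.251% higher, and the folds of the 8 lay between 1.37-fold lower (rc_AA892014_s_at of Ddx39b) and 1.4-fold higher (rc_AA799893_g_at of Hnrnpa1). The median log2 fold was 0.05, against 0.01 over all probe sets.

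**Figure D3:**
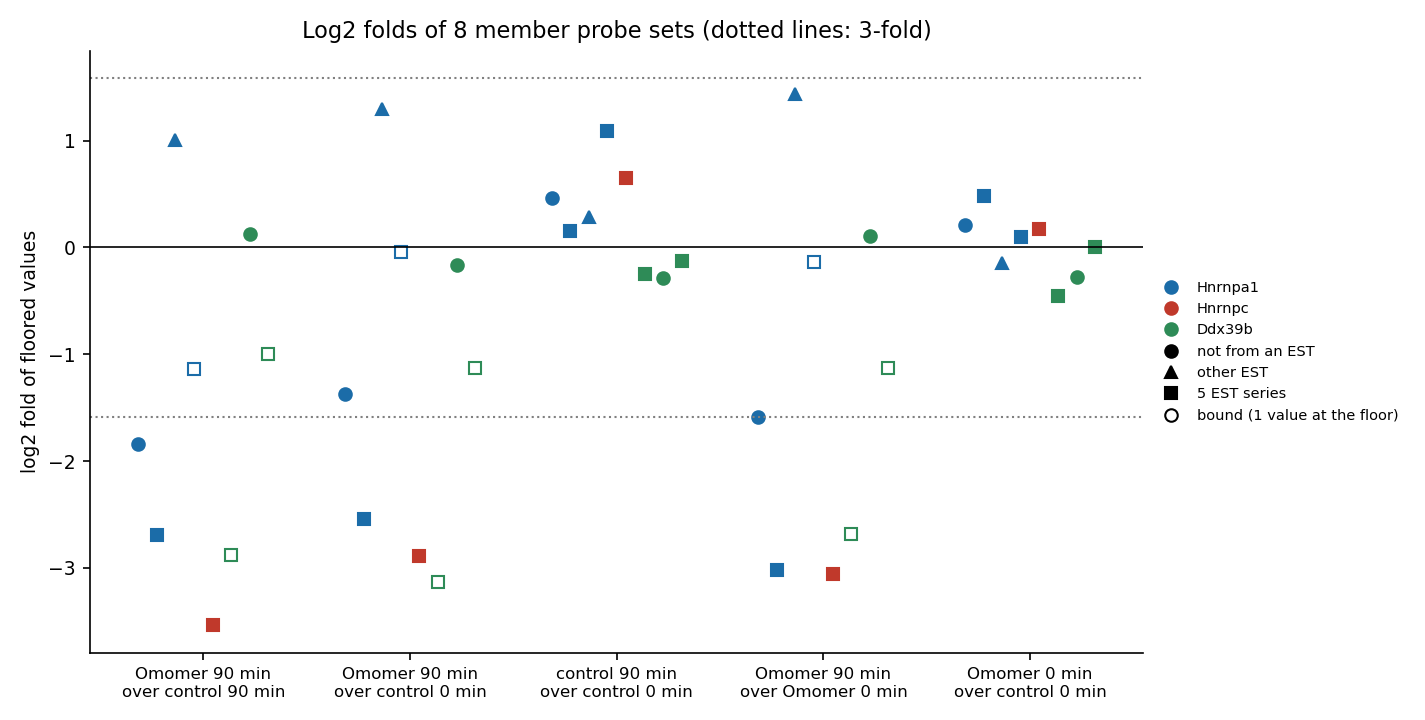
Log2 fold of the 8 member probe sets with a fold in each of 5 comparisons, 1 array per condition, with colours for genes and shapes for probe set origin; open symbols are bounds against the floor and dotted lines mark 3-fold. Calls occur in the 3 comparisons that contain the Rat1-Omomer 90 min array (4, 3 and 4 lower) and in neither of the 2 others. Of all probe sets, 8.57%, 9.95% and 9.65% were lower by 3-fold or more in those 3, against 1.81% and 0.503% in the 2 others.

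The same comparison was made for 101 other genes of RNA binding and splicing, of which 39 had probe sets with a single symbol, 62 in all. At 90 min, 13 of 48 with a fold were lower by 3-fold or more in Rat1-Omomer than in Rat1-control cells and none was 3-fold higher, against 8.57% lower and 2.22% higher of all probe sets. The median log2 fold was -0.94, against 0.18 over all probe sets. Some of the 48 share a gene or an EST, so that they are not independent. Of all probe sets with at least 3 times the floor in Rat1-control cells at 90 min, 18.9% were lower by 3-fold or more. Among probe sets of hnRNP genes, which coat nascent transcripts, 4 of 15 were lower. They were rc_AA799511_at, rc_AA799511_g_at and rc_AA799523_g_at of Hnrnpa2b1 and rc_AI104524_s_at of Hnrnpab. The lowest fold above the floor was that of Hnrnpa2b1, which encodes a close relative of hnRNP A1 and had 1217 in Rat1-Omomer and 17113 in Rat1-control cells at 90 min, with 10156 in Rat1-Omomer and 13932 in Rat1-control cells at 0 min, 14.1-fold lower at 90 min by rc_AA799523_g_at. Its low value is under that array's own floor of 1228. Of probe sets of SR proteins and their kinases, which promote exon inclusion, 2 of 11 were lower. Srsf2, a nuclear SR protein, was 6.40-fold lower by rc_AA875537_at, with 3736 in Rat1-Omomer and 23902 in Rat1-control cells at 90 min. The probe sets of Hnrnpa2b1 and Srsf2 here are of the 5 EST series. Outside them, Tra2b, a regulator of exon inclusion, was 6.21-fold lower by D49708_at, with 1291 in Rat1-Omomer and 8021 in Rat1-control cells at 90 min. By rc_AI231164_s_at, however, it was 2.02-fold higher, with 12393 in Rat1-Omomer and 6145 in Rat1-control cells. Tra2b was also at least 1.21-fold higher by rc_AA955859_at, and 1.30-fold lower by rc_AA851749_s_at, which is of the 5 EST series. Of probe sets of spliceosome and other splicing genes 5 of 16 were lower, and of those of export, poly(A) and decay genes 2 of 6. Where both arrays were above the floor, the highest folds were those of Ybx1, a cold shock domain protein that packs mRNA, at 2.19-fold higher, of Tra2b and of Srsf5, an SR protein, at 1.78-fold higher.

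Outside the 5 EST series, 4 of 27 probe sets of these other genes were lower by 3-fold or more in Rat1-Omomer than in Rat1-control cells at 90 min, where 3.3% of all probe sets outside the series were. Their median log2 fold was -0.18, against 0.32 over all probe sets outside the series. Inside the series 9 of 21 were lower, where 27.2% of all probe sets in them were, with a median of -1.29 against -0.69. These shares include dim probe sets. With at least 3 times the floor in Rat1-control cells at 90 min, 7.36% of all probe sets outside and 57.3% inside were called. The other genes were not counted at that brightness. By role, the counts of probe sets outside the series were 1 of 10 for hnRNP genes. They were 1 of 6 for SR proteins and their kinases (with a median of 0.44) and 2 of 7 for the spliceosome. For export, poly(A) and decay the count was 0 of 4. The 4 outside were D49708_at of Tra2b and, named after their values were seen, those of Hnrnpab, Ddx39a and Pnn. Hnrnpab, an hnRNP of the A/B type, had 6359 in Rat1-Omomer and 28851 in Rat1-control cells at 90 min, 4.54-fold lower. Ddx39a, a helicase paralogous to Ddx39b, had 965 in Rat1-Omomer and 6515 in Rat1-control cells at 90 min, with 3636 in Rat1-Omomer and 3622 in Rat1-control cells at 0 min, at least 6.22-fold lower at 90 min. Pnn, pinin, a protein of nuclear speckles, was at least 3.85-fold lower. Both Ddx39a and Pnn were under the floor on the Rat1-Omomer 90 min array alone.

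In Rat1-control cells none of 45 probe sets of the other genes reached 3-fold with serum, and 30 of the 45 were higher at 90 min than at 0 min, with a median log2 fold of 0.20 against -0.07 over all probe sets. Where both arrays were above the floor, the highest were Ptbp1, the polypyrimidine tract binding protein, at 1.92-fold by X74565cds_at and Hnrnpab at 1.82-fold. By X74565cds_g_at and rc_AA891901_g_at Ptbp1 was 1.15-fold and 1.03-fold higher. The lowest with both arrays above the floor were Hnrnpm, an hnRNP, at 1.52-fold lower and Srpk2, an SR protein kinase, at 1.5-fold lower. A second probe set of Srpk2, rc_AA891069_at, named after its values were seen, had 2580 in Rat1-Omomer and 1001 in Rat1-control cells at 90 min, with 1632 in Rat1-Omomer and 2252 in Rat1-control cells at 0 min. With 1 value under the floor, this probe set was at least 2.15-fold lower with serum in the Rat1-control line and at least 2.46-fold higher in Rat1-Omomer than in Rat1-control cells at 90 min. Of the 45 probe sets, 24 were higher with serum in Rat1-control cells and lower in Rat1-Omomer cells (53.3%), against 16.0% of all probe sets. Outside the 5 EST series the counts were 13 of 25 (52.0%), against 12.9% of all probe sets outside them. No test of these shares was made, since probe sets of 1 array are not replicates.

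**Figure D4:**
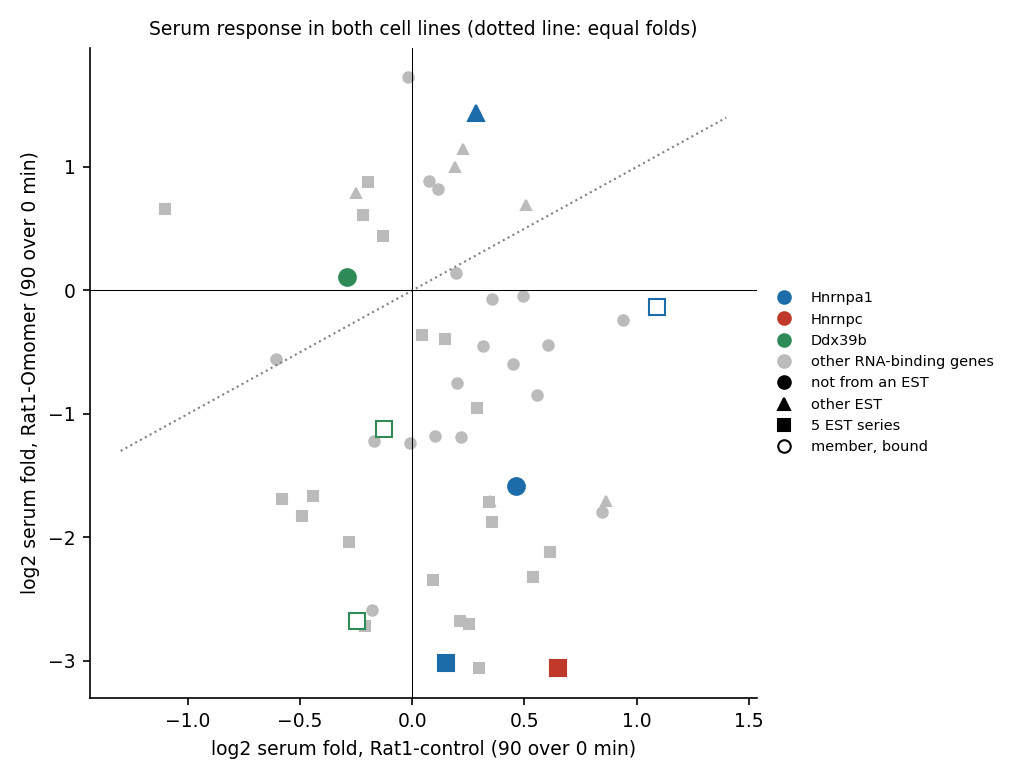
Log2 serum fold (90 over 0 min of the same cells) in Rat1-Omomer cells (vertical axis) against Rat1-control cells (horizontal axis), with the members in colour, the other RNA-binding and splicing genes in grey, shapes for probe set origin and open coloured symbols for bounds. The lower right quadrant, higher in Rat1-control and lower in Rat1-Omomer cells, holds 4 of 8 members and 24 of 45 probe sets of the other genes. Of all 3766 probe sets with both folds, not drawn here, 16.0% had this pair of directions.

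Genes with the most similar pattern were sought over the 4 arrays by the Euclidean distance of log2 folds over Rat1-control cells at 0 min, among 1447 probe sets that were bright and above the floor on all arrays. Nearest to M12156_at of Hnrnpa1 were Tmed2, a cargo receptor of the secretory pathway, at a distance of 0.18 and Ss18, a subunit of SWI/SNF type complexes, at 0.21. Tmed2 had 7954 in Rat1-Omomer and 24792 in Rat1-control cells at 90 min, with 20404 in Rat1-Omomer and 18885 in Rat1-control cells at 0 min, which is the order of arrays seen for M12156_at. Nearest to rc_AA799995_g_at of Hnrnpc were Ssr3, a subunit of the translocon-associated complex, at 0.45 and Eif3b, a translation initiation factor subunit, at 0.45. Nearest to rc_AA892014_s_at of Ddx39b, with its low value set to the floor, were the small GTPase Rhoc at 0.14 and Sdcbp, encoding syntenin, at 0.33. Of these 6 probe sets, 5 belong to the 5 EST series, all but that of Tmed2.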

How the data were processed

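The study hybridized 1 Affymetrix rat genome array for each of 4 conditions. The values are intensities, average differences that the authors computed with MAS 4 with default settings, scaled to nearly equal trimmed means and deposited on a linear scale, with 24.8% to 27.7% of an array's values below 0. Depth is not defined for arrays, and their number limits the precision. Samples were grouped by title, with which source and description go along. The transfection label disagrees for 2 samples, naming Omomyc for Rat1-control at 90 min and the control vector for Rat1-Omomer at 0 min. The fold changes of the study rest on MAS 4 comparison rules, which were not used here. Of 8740 probe sets, 7006 had 1 symbol in the platform annotation, 308 several and 1426 none, and symbols were updated through Entrez IDs to the RefSeq GRCr8 table. Folds were ratios of floored values, called at 3-fold, the threshold of the study. Every member was given, as were Myc and the 2 nearest genes by pattern. Of other RNA-binding genes, the 3 highest and 3 lowest probe sets at 90 min were given. So were the 2 highest and 2 lowest probe sets in Rat1-control cells with serum. All of these probe sets were above the floor on both arrays. The members and lists were chosen with earlier results of these data known. Alternatives were other floors, scalings, fold forms, thresholds and sets of probe sets. Python 3.11.15, numpy 2.4.6, pandas 2.3.3 and matplotlib 3.10.9 were used.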

Additional observations from a re-analysis of the deposited data

Results flagged for a closer look

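The serum response of Hnrnpc ran in opposite directions in both cell lines by at least 1.5-fold each. By rc_AA799995_g_at the log2 fold of 90 min over 0 min was -3.06 for the Rat1-Omomer line and 0.65 for the Rat1-control line. The difference was not tested, since each value rests on 1 array per condition. Its Rat1-Omomer 90 min value of 1140 is under that array's own floor of 1228. The Rat1-control rise of 1.57-fold was 1.42-fold with each value moved toward the other by 1 noise SD. This probe set is of the 5 EST series, where 25.5% of probe sets ran in these directions by any amount, against 16.0% of all probe sets. On the deposited scale no other member probe set above the floor on all 4 arrays met the 1.5-fold rule. With median scaling M12156_at of Hnrnpa1 met it as well. It was then 1.51-fold higher with serum in the Rat1-control line and 2.58-fold lower in the Rat1-Omomer line.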

How the results depend on the processing

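Without the 5 EST series, the members at least 3-fold lower numbered 1 of 3 in Rat1-Omomer over Rat1-control cells at 90 min. For Rat1-Omomer cells at 90 min they numbered 0 over Rat1-control and 1 over Rat1-Omomer cells at 0 min. These counts stand in place of 4, 3 and 4 of 8, and fewer members enter this setting. Of all probe sets outside the series 3.3%, 4.36% and 3.7% were lower by as much, in place of 8.57%, 9.95% and 9.65%. At a 2-fold threshold 5 were lower in Rat1-Omomer cells at 90 min over Rat1-control cells at 0 min, and 1 was higher in each of the 3 comparisons with the Rat1-Omomer 90 min array and in Rat1-control cells with serum. With median scaling 1 member, rc_AA965147_at of Hnrnpa1, passed 3-fold upwards in the Rat1-Omomer line at 90 min over 0 min. The other 91 alternative counts stayed within 1.5 times the reported one. Median scaling raised the median log2 fold of all probe sets from 0.10 to 0.26 for Rat1-Omomer at 90 min over Rat1-control at 0 min, from 0.09 to 0.27 for Rat1-Omomer at 90 min over 0 min, and from -0.07 to 0.04 for Rat1-control at 90 min over 0 min. Of the single folds, 14 of 37 came nearer to 0 by more than the SD within a gene at a floor of 4 noise SDs, 6 of 40 went farther from 0 at 1 noise SD and 2 of 40 with the difference form, and none of those called changed sign. No paired analysis was possible because each condition has 1 array.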

Other observations

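Some other RNA-binding genes, chosen after their values were seen, had probe sets that ran the same way. Sfpq, a nuclear protein of paraspeckles, was 2.22-fold and 2.86-fold lower in Rat1-Omomer than in Rat1-control cells at 90 min by its 2 probe sets. Hnrnpu, which binds RNA and the nuclear scaffold, was 1.57-fold and 2.31-fold lower by 2 probe sets. These are AF036335_at and AF036335_g_at of Sfpq and D14048_at and D14048_g_at of Hnrnpu, none from an EST. The IDs of each pair name 1 sequence, so that its 2 probe sets are not independent. Hnrnpa3, close in sequence to Hnrnpa1, by its 2 probe sets was higher by 1.38-fold and 1.69-fold, both from ESTs outside the 5 EST series. Rbm10, an RNA-binding regulator of splicing, was the 1 probe set of the list at least 3-fold higher in any comparison. It had 4835 at 90 min and 1461 at 0 min in the Rat1-Omomer line, 3.31-fold higher. In the Rat1-control line it had 2863 at 90 min and 2898 at 0 min. Rat1-Omomer was thus 1.69-fold higher than Rat1-control at 90 min and 1.98-fold lower at 0 min.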
